A study of Mus musculus with 6 samples.

Results

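The 10 tight junction and JAM genes were measured in mouse lymphatic endothelial cells (LEC), grown in culture from tumours or from normal skin. They are the claudins Cldn5, Cldn1 and Cldn12, the 4-pass protein gene Ocln, the scaffold gene Tjp1, the genes F11r, Jam2 and Jam3 of junctional adhesion molecules (JAMs), the related Esam, and Cgnl1, a cingulin relative. They were chosen by name, with earlier results of these data known. They are 10 of the 18193 genes with at least 1 Affymetrix probe set of their own. Of the 45101 probe sets on the array, 25 belong to them. The value of a gene is that of its probe set with the highest mean over the 6 arrays.

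The tumour LEC group had 3 arrays, of cells from fibrosarcomas that grew in C57BL/6 mice after injection of T241 cells carrying GFP and VEGF-C, which makes lymphatic vessels grow. The normal LEC group had 3 arrays, of cells from the tail dermis of female C57Bl6 mice aged 8 weeks. The labels give no age or sex for the tumour hosts. T241 is a mouse fibrosarcoma line. Cells of both groups were grown on gelatin in EGM-2 medium and selected by antibody for LYVE-1, which binds hyaluronan on lymphatic endothelium, so junctions were sampled in culture and not in the vessel. The array titles of the tumour group speak of tumour cells, while the source text names LEC, and the groups are called by the source text. Nothing in the labels tells whether replicates came from separate cultures or animals, so each p-value rests on array-to-array spread alone, and with 3 arrays a group all values are imprecise.

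Tight junctions seal the cleft between neighbouring cells. Claudins form the strands, occludin sits beside them, and scaffolds such as ZO-1, the product of Tjp1, tie both to actin. JAMs and ESAM are immunoglobulin-like adhesion molecules at the same contacts, where they bind across the cleft and meet leukocytes that cross it. Lymphatic endothelium is known for junctions of differing tightness, button-like in initial lymphatics and zipper-like in collecting vessels, and both hold claudin-5, ZO-1, JAM-A and ESAM beside VE-cadherin.

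Both groups carried lymphatic endothelial signal. Lyve1 read 14.11 to 14.91 on the log2 scale in tumour LEC and 13.65 to 14.32 in normal LEC. The cells were selected for LYVE-1, so this level is no independent sign of their identity. Prox1, the transcription factor of lymphatic fate, read 7.77 to 8.92 in tumour LEC and 7.73 to 8.30 in normal LEC. Of 10 lymphatic markers 9 were on the array and tested, none passed the test, and their median difference, tumour LEC minus normal LEC, was 0.19. Among these 9, Mmrn1 was at background on all 6 arrays. The 14 pan-endothelial markers had a median difference of 0.96, 11 of them positive, and none passed. Their summed linear level was 26038 to 42122 in tumour LEC and 10362 to 23481 in normal LEC. Pecam1, a pan-endothelial adhesion molecule, read 8.08 to 8.86 in tumour LEC, and 5.59, 7.39 and 8.22 in normal replicates 1, 2 and 3. Normal replicate 1 stood apart by its fibroblast markers. The median deviation of the 18 genes of that list from their means over all arrays was -2.08 to -1.83 in tumour LEC, against 4.01 in normal replicate 1 and 1.15 and 1.28 in normal replicates 2 and 3. The list's summed linear level was 10180 to 19129 in tumour LEC and 37394 to 89407 in normal LEC. All tumour arrays lay below all normal arrays for 16 of its 18 genes. Among all genes above background on some array this share was 13.5%. Thy1, also in the lymphatic list, went the other way (12.97 to 13.67 in tumour LEC, 12.58 to 12.83 in normal LEC). Of the fibroblast list's defining genes Col1a2 was at background on 2 tumour arrays. In bulk samples fewer cells of a type and less RNA per cell cannot be told apart.

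Between tumour and normal LEC, 0 of the 10 genes passed the test (limma, Benjamini-Hochberg adjusted p under 0.05 over 12955 genes, of which 28 or 0.216% passed, 0.0463% higher and 0.17% lower in tumour LEC). Without adjustment 3 had a p under 0.05, Esam and F11r higher and Jam2 lower in tumour LEC, where the share of all genes was 15.5% in total, 6.66% higher and 8.83% lower. These 3 were also the genes whose groups did not overlap. The share of all genes with separate groups was 32.4%, with 20.9% higher and 11.6% lower in tumour LEC, and it was 27.2%, with 13.8% higher and 13.5% lower, among the 11105 genes above background on some array. At 3 of 10, the members lay near the shares with separate groups. They lay above the 15.5% with an unadjusted p under 0.05, a gap that was not tested. Of the 10 differences 6 were positive, against 53.1% of all genes. Their median was 0.38, against 0.03 for all genes tested and -0.03 for those above background on some array.

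A value counts as background where it does not exceed its array's highest reading of 27 controls that match bacterial transcripts not in the sample. This limit was 3.40 to 3.71 in all, 3.48 to 3.71 in tumour LEC and 3.40 to 3.47 in normal LEC. On this measure 7 of the 10 genes were above background on all 6 arrays, Jam2 on 4 arrays, and Cldn1 and Ocln on 1 array each. Of the 25 probe sets, 10 were at background on all arrays and 15 passed the filter on low values, and each of the 10 genes was tested.

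**Figure D1:**
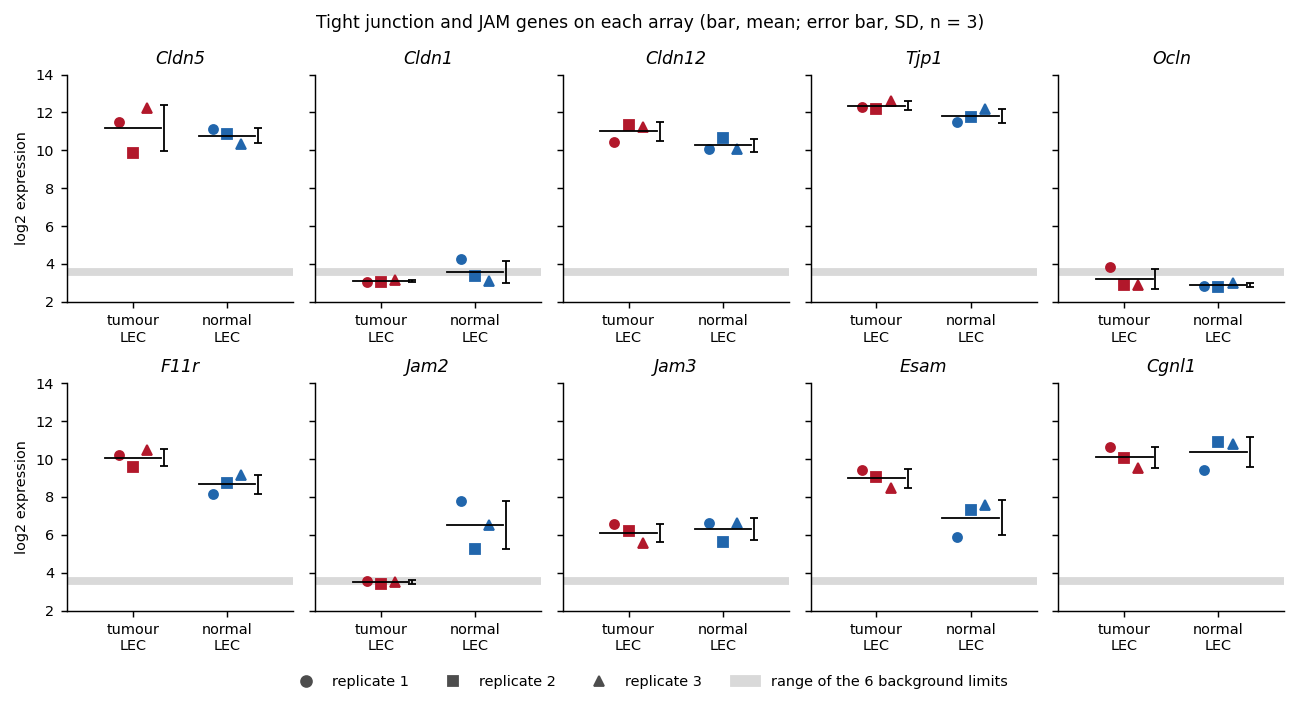
Log2 expression (y axis) of the 10 genes on each array, with tumour LEC left and normal LEC right in each panel. Marker shapes give the replicate, bars the mean and error bars the SD (n = 3), and the grey band spans the 6 background limits (3.40 to 3.71). Esam and F11r are higher and Jam2 lower on every tumour array, the groups of the other 7 genes overlap, and Cldn1 and Ocln lie at or near the band.

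Esam encodes the endothelial cell-selective adhesion molecule, an immunoglobulin-like protein of endothelial tight junctions. It read 9.43, 9.07 and 8.46 in tumour LEC replicates 1 to 3, against 5.87, 7.30 and 7.55 in normal LEC replicates 1 to 3. Every tumour array lay above every normal array, and normal replicate 1 was the lowest of all. Tumour LEC averaged 8.99 ± 0.49 and normal LEC 6.91 ± 0.91 (SD, n = 3 each), a 4.22-fold difference (log2 2.08, SE 0.51, 95% interval 0.80 to 3.35, limma adjusted p = 0.174). Without normal replicate 1, where fibroblast markers were highest and the pan-endothelial list lowest (median deviation -1.10), the difference was 1.56 (SE 0.32, limma adjusted p = 0.213). The part of either list in the difference was not tested. Esam has 1 probe set here.

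F11r encodes JAM-A, which binds itself across the cell contact and the integrin LFA-1 on leukocytes. It read 10.19, 9.56 and 10.48 in tumour LEC, against 8.13, 8.75 and 9.14 in normal LEC (replicates 1 to 3 in each). The groups did not overlap, the nearest pair being tumour replicate 2 and normal replicate 3. The difference was 2.64-fold (log2 1.40, SE 0.35, 95% interval 0.54 to 2.27, limma adjusted p = 0.174), and 1.13 without normal replicate 1. The other probe set of F11r was at background on all 6 arrays, so this rests on 1 probe set.

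Jam2 encodes JAM-B, a partner of JAM-C across endothelial contacts. It read 3.59, 3.42 and 3.52 in tumour LEC, against 7.77, 5.24 and 6.49 in normal LEC (replicates 1 to 3 in each). Tumour replicates 2 and 3 were at background and tumour replicate 1 was just above its limit of 3.48, while all normal arrays were above theirs. With the background values raised to the limit of their array, Jam2 was lower in tumour LEC by at least 7.43-fold (measured log2 difference -2.99, SE 0.62, 95% interval -4.55 to -1.44, limma adjusted p = 0.132). A second Jam2 probe set gave the same order, at 2.19, 2.10 and 2.17 in tumour LEC, all at background, and 5.95, 4.37 and 5.46 in normal LEC. With its tumour values raised to the limits this probe set differed by at least 3.22-fold (limma adjusted p = 0.0720 among 27022 probe sets, on the measured values). The remaining 3 Jam2 probe sets were at background on all arrays. Jam2 was highest in normal replicate 1, as were 17 of the 18 fibroblast markers among the normal arrays, and without that array its measured difference was -2.36 (SE 0.39, limma adjusted p = 0.149). It was -3.62 without normal replicate 2. The part of fibroblast signal in the remaining difference was not tested.

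Jam3 encodes JAM-C, the binding partner of JAM-B. It read 6.55, 6.20 and 5.59 in tumour LEC, against 6.65, 5.63 and 6.63 in normal LEC. The groups overlapped, and the lowest arrays were tumour replicate 3 and normal replicate 2. The difference was -0.19 with a 95% interval of -1.14 to 0.75 (limma adjusted p = 0.794), so a change of about 2-fold downwards is inside the interval. The differences of the 4 immunoglobulin-like genes thus ran from -2.99 for Jam2 to 2.08 for Esam.

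**Figure D2:**
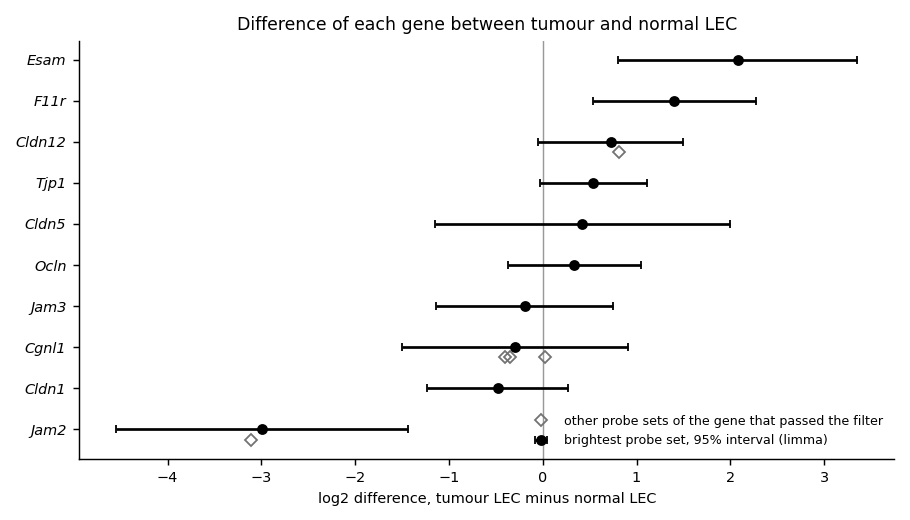
Log2 difference (x axis, tumour LEC minus normal LEC) of each gene (y axis), with its 95% interval by limma. Open diamonds are further probe sets of the same gene that passed the filter. The intervals of Esam (0.80 to 3.35), F11r (0.54 to 2.27) and Jam2 (-4.55 to -1.44) leave out 0. They are not adjusted for the number of genes, and none of these genes passed the test. The open diamond of Jam2 is a measured value of a probe set at background on all tumour arrays, for which only the bound of at least 3.22-fold holds. The main Jam2 point is also a measured value, with 2 tumour arrays at background and a bound of at least 7.43-fold.

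Cldn5 encodes claudin-5, the main claudin of endothelial strands. It read 11.47, 9.87 and 12.25 in tumour LEC, against 11.14, 10.85 and 10.34 in normal LEC. The tumour arrays held both the highest and the lowest of the 6 values, and their spread was 1.22 (SD), against 0.40 in normal LEC. The difference of 0.42 (SE 0.63, limma adjusted p = 0.727) had a 95% interval of -1.15 to 1.99. It was 1.09 without tumour replicate 2 and -0.11 without tumour replicate 3, so single tumour arrays set its size and sign.

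Cldn12 encodes claudin-12, a claudin that lacks the C-terminal motif by which others bind ZO-1. It read 10.42, 11.34 and 11.22 in tumour LEC, against 10.05, 10.67 and 10.09 in normal LEC. Tumour replicate 1 lay below normal replicate 2, so the groups overlapped by this pair alone. The difference was 0.73 (SE 0.31, 95% interval -0.05 to 1.50, limma adjusted p = 0.343), and the second probe set gave 0.81. Cldn1 encodes claudin-1, best known from the barrier of the epidermis. It was at background in all 3 tumour arrays and in 2 normal arrays, and read 4.24 in normal replicate 1. Its other 3 probe sets were at background on all arrays.

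Of 18 keratinocyte or epithelial markers 17 were on the array and 10 of these were at background on all arrays, among them Krt14, a keratin of basal keratinocytes, and Cdh1, the epithelial cadherin. Krt5, the partner of Krt14, read 3.82 to 4.46 in tumour LEC and 3.73 to 3.81 in normal LEC, and Epcam, an epithelial adhesion molecule, read 3.56 to 4.21 in tumour LEC and 3.58 to 4.56 in normal LEC. Of the 14 tested, 8 had a positive difference, with a median of 0.06, and the median of the 7 above background on some array was -1.54. The list's summed linear level was 287 to 803 in tumour LEC and 2461 to 5113 in normal LEC, and Krt8, Krt18 and Perp held 59.2 to 86.3% of it in tumour LEC and 88.9 to 93.5% in normal LEC. The groups of Krt8 and Krt18, a keratin pair of simple epithelia, overlapped. The 2 genes that passed the test were both lower in tumour LEC. Krt19, another keratin of simple epithelia, was at background on all tumour arrays and at least 13.6-fold lower there (limma adjusted p = 0.0276). Perp, a desmosome-associated protein, differed by -5.30 (SE 0.52, limma adjusted p = 0.0415). These 4 genes are named after their values were seen.

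Ocln encodes occludin, the 4-pass protein that lines the strands. It read 3.83 in tumour replicate 1 and at background on the other 5 arrays, and its second probe set was at background on all arrays. Tumour replicate 1 was also the array with the highest leukocyte markers, whose median deviation was 1.60 there and -0.43 to 0.31 elsewhere. Of the 15 genes of that list 14 were on the array, 4 of them at background on all arrays, and 0 of 12 tested passed. Ptprc, which encodes CD45 of leukocytes, was at 5.92 on that array and at background on the other 5, and Cd68, a macrophage marker, was at 10.88 on that array and at 4.82 to 9.57 on the others. The list's summed linear level was 2058 to 7678 in tumour LEC and 1920 to 4901 in normal LEC. The part of such cells in the single Ocln reading was not tested.

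Tjp1 encodes ZO-1, the scaffold that binds claudins, occludin and JAMs. It read 12.28, 12.17 and 12.62 in tumour LEC, against 11.48, 11.76 and 12.20 in normal LEC. Of the 3 by 3 pairs of arrays, tumour replicate 2 and normal replicate 3 alone crossed. The difference was 1.45-fold (log2 0.54, SE 0.23, 95% interval -0.03 to 1.11, limma adjusted p = 0.341). Tjp1 has 1 probe set here.

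Cgnl1 encodes paracingulin, a protein of the cytoplasmic side of the junction. It read 10.65, 10.05 and 9.55 in tumour LEC, against 9.45, 10.88 and 10.81 in normal LEC. Normal replicate 1 was the lowest array and the other 2 normal arrays the highest. The difference was -0.30 (SE 0.49, 95% interval -1.50 to 0.91, limma adjusted p = 0.751). Leaving out 1 array at a time moved it between -0.76, without normal replicate 1, and -0.03, without tumour replicate 3. Among its 3 further probe sets that passed the filter the differences were -0.35, -0.40 and 0.03.

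Within the normal group 5 of the 10 genes were lowest in replicate 1 and 4 were highest there. The genes lowest there were Esam, F11r, Tjp1, Cldn12 and Cgnl1, and those highest there were Jam2, Jam3, Cldn1 and Cldn5. The share of all genes lowest or highest in that replicate was not counted, so such counts, here and for the lists, have no reference.

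**Figure D3:**
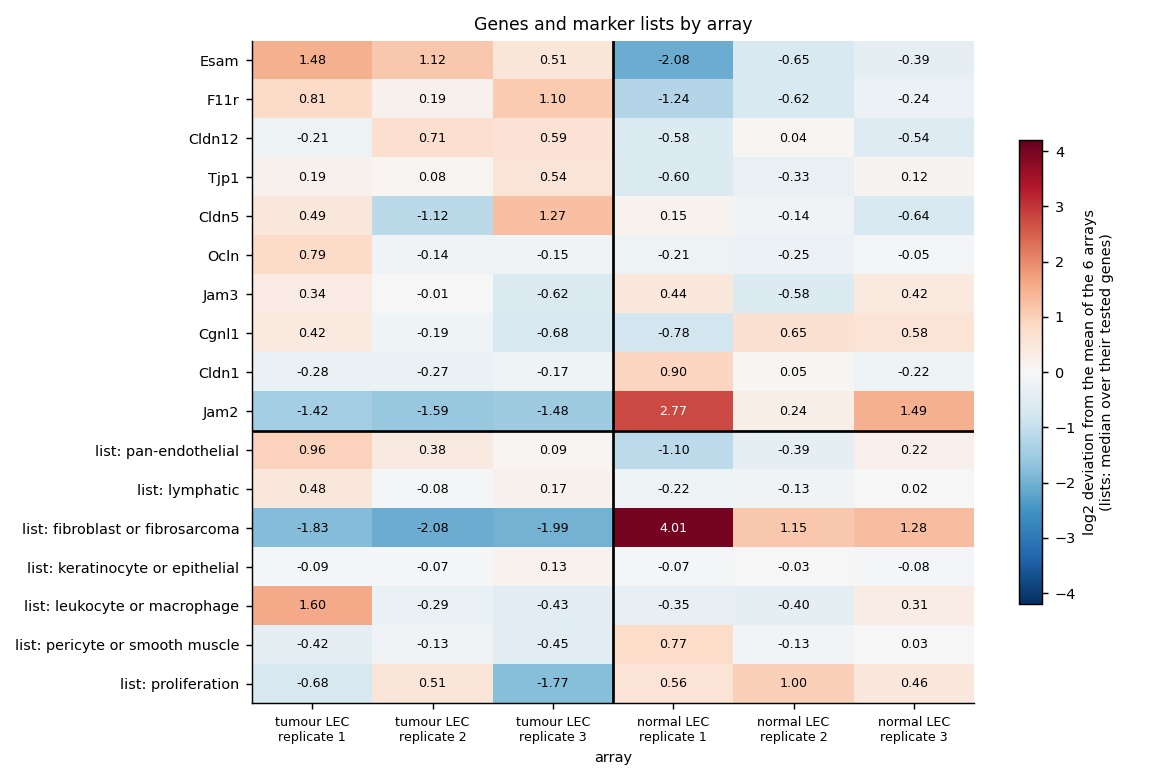
Log2 deviation of each gene from its mean over the 6 arrays (rows above the line), and the median deviation of each marker list (rows below it), with tumour LEC columns left of normal LEC columns. Colour and number give the deviation. In normal replicate 1 the fibroblast list is at 4.01 and Jam2 at 2.77, while the pan-endothelial list is at -1.10 and Esam at -2.08.

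The promoters of 7 of the 10 genes matched the RefSeq promoter table (build GRCm38.p6), and 2 are printed, for F11r, whose groups were separate, and for Cldn5, whose groups overlapped. Each is the 250 bases before the gene's start, 5′ to 3′ on the gene's strand, with motif matches in capitals. The F11r stretch is chr1:171437311-171437560 (plus strand) and the Cldn5 stretch chr16:18776597-18776846 (plus strand).
F11r: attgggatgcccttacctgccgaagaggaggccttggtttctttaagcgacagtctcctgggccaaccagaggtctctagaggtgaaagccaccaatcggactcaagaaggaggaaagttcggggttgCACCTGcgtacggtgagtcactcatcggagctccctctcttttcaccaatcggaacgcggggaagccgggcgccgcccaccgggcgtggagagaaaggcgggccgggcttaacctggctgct
Cldn5: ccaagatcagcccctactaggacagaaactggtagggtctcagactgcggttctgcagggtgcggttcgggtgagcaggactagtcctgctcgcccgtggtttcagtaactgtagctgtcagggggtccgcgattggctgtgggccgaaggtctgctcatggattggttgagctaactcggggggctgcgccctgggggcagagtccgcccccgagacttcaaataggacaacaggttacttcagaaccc
On both strands 4 motifs were searched, which do not overlap in these stretches. The E-box CAGGTG, of the kind SNAI and ZEB factors bind, occurred once in F11r, on the reverse strand, 122 bases before the start, and in 17.2% of all 32851 promoters. The E-box CACGTG (6.02% of all promoters), the ETS core CCGGAA (12%) and the forkhead core GTAAACA (3.17%) were in neither stretch. These are letter matches in a window and say nothing of binding.

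Other tight junction genes came from a list of 54, of which 51 were on the array. None of the 36 tested passed (limma), with 8 at an unadjusted p under 0.05, 6 higher and 2 lower in tumour LEC, where all genes had 15.5%, 6.66% and 8.83%. Of the 28 above background on some array the groups were separate for 10 genes, 7 higher and 3 lower in tumour LEC, where the shares of all genes above background were 27.2%, 13.8% and 13.5%. The median difference of the 36 was 0.10, against 0.03 for all genes tested. For the 28 above background it was 0.23, against -0.03 for all genes above background on some array. The list's other claudins were dim: 16 of 17 on the array were at background on all arrays, and Cldn14 read above its limit in normal replicate 1 alone.

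Scaffolds and an adhesion molecule were among the higher-reading genes with the smallest p. Magi3, a scaffold with PDZ domains at the inner face of junctions, read 10.98, 10.90 and 11.54 in tumour LEC, against 8.56, 9.32 and 9.62 in normal LEC, a 3.93-fold difference (log2 1.98, SE 0.33, limma adjusted p = 0.0900). Its relative Magi1 differed by 1.34 (SE 0.36), with all tumour arrays (7.55 to 8.88) above all normal arrays (6.78 to 7.18). Cxadr, the coxsackievirus and adenovirus receptor and an adhesion molecule of the same immunoglobulin family as the JAMs, read 8.00, 8.35 and 9.66 in tumour LEC, against 5.82, 6.43 and 6.91 in normal LEC (log2 difference 2.28, SE 0.51, limma adjusted p = 0.149). Like Esam and F11r, Magi3, Cxadr and Magi1 were lowest in normal replicate 1.

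Marveld2, or tricellulin, a protein of 3-cell contacts, was above background on all tumour arrays (3.69 to 5.77) and at background on 2 of 3 normal arrays (2.78 to 3.44 in all). With the background values raised to their limits it was at least 2.47-fold higher in tumour LEC. Amotl2, an angiomotin relative that links junctions to actin, differed by 0.92 (SE 0.29) and Rap1a, a small GTPase that tightens endothelial contacts, by 0.30 (SE 0.11), with separate groups in both. On the other side stood Cldnd1, a claudin domain protein, at -0.76 (SE 0.15), the polarity scaffold Pard3 at -0.61 (SE 0.20) and the scaffold Mpdz at -0.22 (SE 0.12), each with all tumour arrays below all normal arrays. None of these passed the test.

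**Figure D4:**
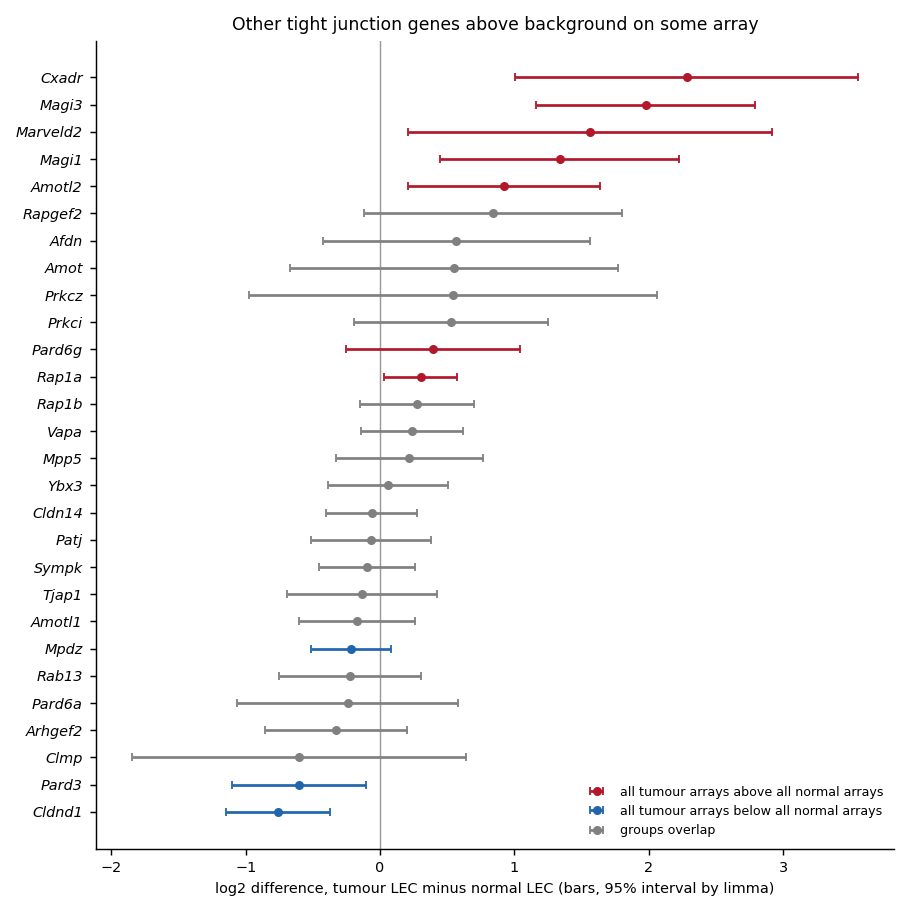
Log2 difference (x axis, tumour LEC minus normal LEC) with its 95% interval by limma for the 28 other tight junction genes (y axis) above background on some array. Colours mark separate groups, with 7 genes higher and 3 lower on every tumour array. Cxadr (2.28) and Magi3 (1.98) have the largest positive differences and Cldnd1 (-0.76) the largest negative one.

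A list of 7 transcription factor and junction genes linked to Cldn5 control had 7 positive differences, against 53.1% of all genes, with a median of 0.76, and none passed (limma, 2 at an unadjusted p under 0.05, both higher, against 6.66% of all genes). In 4 of them the groups were separate, all higher in tumour LEC, against 20.9% of all genes. These 4 were among the 6 above background on some array, where the share of all such genes was 13.8%. Normal replicate 1 gave the lowest normal value for 5 of the 7, of which 1, Sox17, was at background on all arrays, and its part in these counts was not tested. The list was not split by whether a gene raises or lowers Cldn5, so its count of positive differences gives no direction for Cldn5. Cdh5, or VE-cadherin, which raises claudin-5 in mouse endothelium, read 11.52 to 11.65 in tumour LEC and 9.62 to 11.37 in normal LEC. Cdh5 and Erg are also in the pan-endothelial list, whose median difference was 0.96, so the counts of these lists are not separate. Of 5 genes for integrin chains that bind JAMs, Itgal and Itgam, which encode the alpha chains of LFA-1 and Mac-1, were at background on all arrays, and 0 of the 3 tested passed (median difference -0.33).

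Of the remaining marker lists, the 10 blood vascular genes had a median difference of -0.02 (-0.49 over the 7 above background on some array) and 0 passed. The 8 tested pericyte or smooth muscle genes had a median of -0.38 (-0.97 over the 6 above background) and 0 passed. All 14 tested proliferation genes had a negative difference, with a median of -1.42, and 0 passed. The tumour arrays stood apart from each other in that list, with a median deviation of 0.51 in tumour replicate 2, close to the 0.46 to 1.00 of normal LEC, and of -0.68 and -1.77 in tumour replicates 1 and 3. Of the fibroblast list 1 of 18 passed, Col1a2, a chain of type I collagen (3.61, 3.16 and 2.76 in tumour LEC, against 14.29, 11.69 and 11.70 in normal LEC), with a list median of -3.98. Pdgfra, a growth factor receptor of the same cells, read 4.66 to 5.74 in tumour LEC and 9.13 to 11.75 in normal LEC.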

How the data were processed

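On each of 3 tumour LEC and 3 normal LEC arrays 50 ng of total RNA was used, per the labels' protocols. The authors deposited log2 expression values, 1 for each probe set. RMA and GCRMA are named in the submitters' processing notes without a version, and the one that made these values is not given in the sources used here. If GCRMA was used, it draws dim signals towards a floor, where Jam2, Cldn1 and Ocln lay on several arrays.

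Names came from GEO's platform annotation, with symbols updated from RefSeq (GRCm38.p6), and probe sets with 1 gene were used (34945 of 45101). Probe sets in the lowest 40 percent by mean log2 value were dropped (27022 stayed), and the brightest per gene gave 12955 genes. Tumour and normal LEC were compared with limma 3.58.1 in R 4.3.3 (lmFit and eBayes, two-sided, Benjamini-Hochberg over all genes). The smallest p of an exact permutation test of 3 against 3 arrays is 0.1, and none was run. The members, lists and tests were chosen with earlier results of these data known. Of 186 list entries 179 were on the array. The rule named all 10 members, up to 6 other tight junction genes per direction with the smallest p, separate groups and some signal above background, and 12 defining markers. Cldn14, Krt8, Krt18, Krt19, Perp, Sox17, Itgal, Itgam, Mmrn1, Thy1 and Erg were named with their values known. The fit was tested on simulated data of 12955 genes: for changes of 1, 2, 4 and 8 log2 units it recovered 42%, 78%, 96% and 100%, and 7 of 165 calls were unchanged genes. The simulated noise was independent for each gene, drawn from its own spread, genes near the floor included. It held no shift shared by the genes of an array, so these shares do not give the power for the 10 genes here. Summed linear levels are sums of 2 to the power of the log2 values over a list. The alternatives were other filters, scalings, variance models, array weights, probe set rules, a replicate block and leaving out each array.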

Additional observations from a re-analysis of the deposited data

How the results depend on the processing

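None of the 10 genes passed the test under any of the 15 alternative settings (lowest limma adjusted p = 0.0573, Jam2 with array weights). The sign of 8 genes held in each setting that tested them, and that of Cldn5 and Jam3 turned. With arrays weighted by quality Cldn5 differed by -0.53, and Jam3 by 0.022 with quantile normalization, and without single arrays they ranged from -0.11 to 1.09 and from -0.53 to 0.070. The median of the 10 genes was -0.017 with array weights and 0.15 to 0.52 without single arrays. Over members above background, a choice made after seeing the data, it was unchanged because all 10 are above background somewhere. The count of all genes that passed, 28, was 10 with no filter on low values, 97 with a 60th percentile filter, 385 with array weights, 46 with the replicate block and 4 to 81 without single arrays. Of the other tight junction genes 1 passed with array weights, Magi3 (difference 1.72, adjusted p = 0.0466). The causes were not tested. Same-numbered arrays deviated together at r = 0.19, 0.33 and -0.004 across genes, and 4 of the 6 arrays correlated best with their own number. These values do not settle whether the numbers are pairs. The sample labels name no pairing, so the main test took none. The block changed no call of a member. The 60th percentile filter left out Cldn1 and Ocln, and leaving out the _x_at, _s_at and _a_at probe sets left out Cldn1 and Tjp1.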
